A study of Homo sapiens with 6 samples.

Results

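Protocadherins are membrane-spanning adhesion proteins with calcium-binding cadherin repeats outside the cell, and they form the largest group of the cadherin superfamily. The clustered genes (A, B and G) lie in tandem on chromosome 5, where each variable gene has its own promoter, and their proteins give neurons distinct surface identities through homophilic binding. The architectural protein CTCF and the ring-shaped cohesin complex act at the promoters of the cluster, and DNA methylation is known to silence them. The non-clustered genes are scattered over the genome. Most of their proteins, the delta protocadherins, mediate weaker adhesion than classical cadherins and signal to the actin cytoskeleton, and several of their genes are known to be methylated in carcinomas.

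Members were the genes whose platform symbol was PCDH followed by a number, by A, B or G and a number, or by one of these letters, a second letter and a number, with a final X or Y allowed. Of 14884 named genes 29 met this rule, 16 clustered and 13 non-clustered. RefSeq has 67 symbols of this form. All 16 clustered members were PCDHB genes, so every gene of the B cluster was measured, whereas the A and G clusters were not analysed here. The non-clustered members included all 13 RefSeq symbols outside the clusters.

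The cells were SKOV3, an established human ovarian carcinoma line, in McCoy's 5A medium with 15% serum for 11 days. The 2D group (n = 3 arrays) grew on attachment plates without FP001 (the labels name Milli-Q water as the alternative to it), and the 3D group (n = 3 arrays) grew in low-attachment wells with FP001 at 0.015% (w/v), a medium additive named here by its code alone. Plate and additive differed together, so their effects cannot be told apart. The design text says that samples were collected 3 times, and nothing says whether they came from separate cultures, so the p-values cover the variation between the collected samples alone, and that variation may be technical. Values are log2 RMA values, changes are 3D minus 2D on that scale, and adjusted p-values are Benjamini-Hochberg values from limma over all 14884 genes. Precision is limited by the number of arrays.

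The arrays had medians of 4.30 to 4.37 and a mean lower quartile of 2.93. Correlations across genes were 0.991 to 0.993 within 2D and 0.988 to 0.995 within 3D, with 3D replicate 1 the array apart in its group. Over all genes the test called 10.0%, with 5.23% higher and 4.77% lower in 3D. Of 12 ovarian carcinoma epithelium markers 9 were measured, and none had a mean under the lower quartile. PAX8 and KRT18, given for identity, were at 10.2 ± 0.06 and 9.61 ± 0.14 in 2D (SD, n = 3) and did not pass the test (adjusted p of 0.455 and 0.117). In this list 4 genes rose, 1 fell and 4 did not pass, with a median change of 0.45. The keratin gene KRT19 rose by 2.70 ± 0.24 (SE), the adhesion molecule gene EPCAM by 1.76 ± 0.11 and the tight junction gene CLDN3 by 1.12 ± 0.13, whereas KRT7 fell by 0.93 ± 0.14. CLDN4, named after its value was seen, rose by 0.64 ± 0.12 and lost its call without 3D replicate 2 or 3 (adjusted p up to 0.0703). The summed linear level of the 9 markers was 2947 to 3089 in 2D and 4738 to 6032 in 3D, and their part in the protocadherin changes was not tested.

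The promoters of the B cluster are shown first, because one stretch of sequence is common to nearly all of them. Promoter sequences from RefSeq (GRCh38.p14, 250 bases before to 50 bases after each gene start) were matched by symbol for 25 of the 29 members, 14 of them PCDHB genes; PCDHB6, PCDHB11, PCDH10 and PCDH20 had no entry. The 9-letter motif GGTGGCGCT, which contains the CGCT letters known as the core of the conserved element of clustered protocadherin promoters, was chosen after these sequences were seen. Searched on both strands, it was present in 13 of 14 PCDHB promoters against 0.50% of all 35116 promoters in the table. It was in 0 of 15 promoters of non-clustered genes and in 0 of 13 and 0 of 25 of the A and G clusters. The short CGCT letters were in 14 of 14 PCDHB promoters, 11 of 15 non-clustered promoters and 70.0% of all promoters. The windows of 30 bases that hold the motif are given 5′ to 3′ in chromosomal order, all on the plus strand of chromosome 5, with the motif (or its nearest match in PCDHB1) in capitals.
PCDHB1: tagcctttGGTGGTGCTgcagttagaggct
PCDHB2: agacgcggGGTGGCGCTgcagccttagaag
PCDHB3: gaacgcatGGTGGCGCTgttgactaagaag
PCDHB4: agacgcagGGTGGCGCTgcaggctaagttg
PCDHB5: ggacgcctGGTGGCGCTgcaggctaagagt
PCDHB7: aaacgcaaGGTGGCGCTgctggctaaaaag
PCDHB8: ggacccgtGGTGGCGCTgcaggataagaag
PCDHB16: gaacgcgtGGTGGCGCTgcaggttaagatg
PCDHB9: agccacaaGGTGGCGCTgcagactgaagag
PCDHB10: ggccacacGGTGGCGCTgcaggctaaagag
PCDHB12: agacgcgtGGTGGCGCTgcaggataatatc
PCDHB13: ggacgcgtGGTGGCGCTgcaggataagaag
PCDHB14: agacacatGGTGGCGCTacaggataagacg
PCDHB15: caacgcatGGTGGCGCTgcaggctaaggct

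Counted from 1 at the first base of the motif, PCDHB1 differed from it by C6T. In the 13 exact matches the motif began 2 to 84 bases before the annotated gene start, and each promoter held 1 copy on the plus strand. The PCDHB4 window lies at chr5:141121726-141121755 and the PCDHB7 window at chr5:141172569-141172598. The 250 bases before the start of both genes are given because these were the PCDHB genes that passed the test (PCDHB4 at chr5:141121568-141121817, PCDHB7 at chr5:141172394-141172643, both plus strand), again with the motif in capitals.
PCDHB4: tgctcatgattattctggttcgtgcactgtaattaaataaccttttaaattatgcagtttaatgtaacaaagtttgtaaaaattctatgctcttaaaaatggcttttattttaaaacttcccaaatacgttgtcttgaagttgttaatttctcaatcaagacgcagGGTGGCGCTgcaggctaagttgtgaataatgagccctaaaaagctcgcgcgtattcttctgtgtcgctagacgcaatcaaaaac
PCDHB7: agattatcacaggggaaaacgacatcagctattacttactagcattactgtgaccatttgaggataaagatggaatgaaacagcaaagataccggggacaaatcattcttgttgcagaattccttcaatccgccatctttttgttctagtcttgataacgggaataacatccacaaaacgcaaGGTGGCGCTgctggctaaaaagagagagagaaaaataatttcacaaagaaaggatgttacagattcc

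Among the non-clustered genes, PCDH10, PCDH7, PCDH15 and PCDH18 rose more than 2-fold in 3D culture and none fell. That is 4 of 13, read against 5.23% of all genes called higher. The median change of the 13 was 0.05, against -0.01 over all genes, and the other 9 lay between -0.56 and 0.31. By a grouping taken from general knowledge, 2 of 5 delta-2 members (PCDH8, PCDH10, PCDH17, PCDH18 and PCDH19), 1 of 5 delta-1 members (PCDH1, PCDH7, PCDH9, PCDH11X and PCDH11Y) and 1 of the other 3 (PCDH12, PCDH15 and PCDH20) rose.

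PCDH10, a delta-2 protocadherin that binds the actin-regulating WAVE complex and is known as a gene methylated in several carcinomas, read 7.36, 6.94 and 6.79 on the 2D arrays and 8.22, 8.37 and 8.52 on the 3D arrays. The lowest 3D array lay above the highest 2D array. Its mean rose from 7.03 ± 0.30 to 8.37 ± 0.15 (SD, n = 3), a change of 1.34 ± 0.16 (SE, adjusted p = 0.00222) or 2.53-fold. PCDH18, from the same branch, read 5.42, 5.09 and 4.91 in 2D and 6.06, 6.29 and 6.33 in 3D. Its groups did not overlap either, and the change was 1.08 ± 0.15 (SE, adjusted p = 0.00409), or 2.12-fold.

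PCDH7, a delta-1 protocadherin known to interact with protein phosphatase regulators, read 5.50, 5.56 and 5.70 in 2D and 6.71, 6.94 and 6.88 in 3D. The spread within each group was small beside the gap between them. Its change of 1.26 ± 0.11 (SE, n = 3, adjusted p = 0.000448), or 2.39-fold, had the smallest adjusted p of the 29 members. PCDH15, a component of the tip links of inner-ear hair cells, read 3.27, 3.22 and 3.43 in 2D and 4.39, 4.51 and 4.74 in 3D. Its change was 1.24 ± 0.12 (SE, adjusted p = 0.000786), or 2.36-fold, and its 2D level lay between the lower quartile and the median of the arrays (4.33), where RMA compresses changes. Each of these 4 genes passed in all 13 alternatives, including the 6 fits without a single array, with an adjusted p of up to 0.0216 (PCDH10), 0.0322 (PCDH18), 0.00634 (PCDH7) and 0.00657 (PCDH15).

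**Figure D1:**
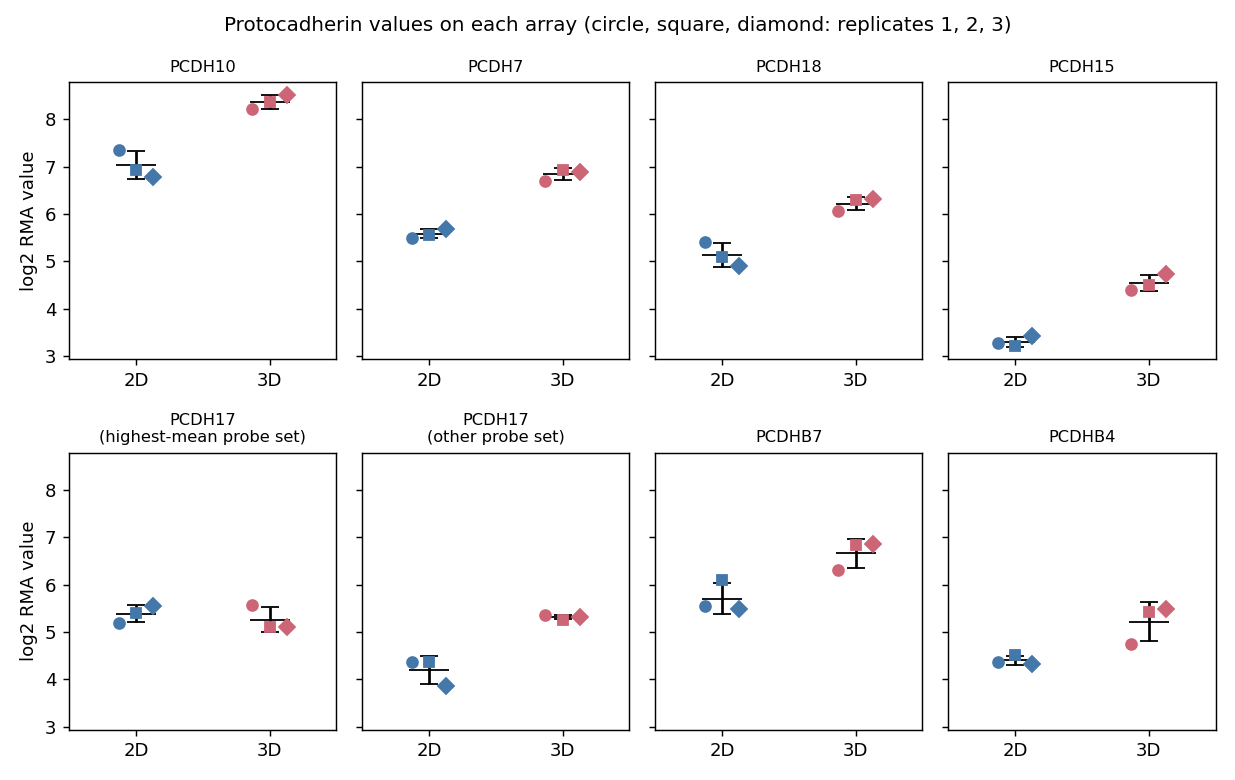
Log2 RMA values (vertical axis) of 7 protocadherin genes on each 2D array (blue, n = 3) and 3D array (red, n = 3), with the mean and SD in black; PCDH17 is shown with both of its probe sets. The 3D points lie above all 2D points in each panel except that of the highest-mean probe set of PCDH17, where they overlap.

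PCDH17, a delta-2 protocadherin, differed between its 2 probe sets. The probe set with the highest mean, which represents the gene by rule, read 5.20, 5.40 and 5.56 in 2D and 5.57, 5.10 and 5.11 in 3D. The groups overlapped and the change was -0.12 ± 0.16 (SE, adjusted p = 0.722). On the other probe set the gene read 4.37, 4.36 and 3.85 in 2D and 5.35, 5.26 and 5.33 in 3D, and every 3D array lay above every 2D array. This probe set rose by 1.12 ± 0.16 (SE, n = 3, limma adjusted p = 0.0210 over all 53617 probe sets, of which 2.39% were called). Of the 6 fits that leave out an array, the one without 2D replicate 3 kept this call among all probe sets and the others lost it (adjusted p of 0.0505 to 0.0990), with changes of 0.95 to 1.21 over the 6 fits.

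The genes numbered next to each of these probe sets differed in strand. PCDH17 lies on the plus strand. Of the annotated genes with the nearest numbers (up to 8 on each side, same chromosome, RefSeq strand known), 11 of 12 around the probe set that rose were on the plus strand, and 12 of 12 around the highest-mean probe set were on the minus strand. PCDH9 showed the same division, as its highest-mean probe set had 11 of 12 neighbours on the gene's own minus strand and its dimmer one 0 of 11. For the other members whose strand was known, between 3 of 4 (PCDH11Y) and all of the neighbours had the strand of the gene. Which strand a probe set detects was not tested, since the probe sequences were not used here. With the most variable probe set per gene, PCDH17 passed (limma adjusted p = 0.00390) and 5 of 13 non-clustered genes rose. In that setting 772 of 14884 genes were called higher. The variance was taken over the arrays of both groups, so the choice favours a probe set that differs between them. For PCDH17 it took the probe set that rose, and this call is not independent evidence of a rise.

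Of the remaining non-clustered genes 8 did not pass the test and are given with 95% intervals. PCDH20 had the largest negative change, with 4.86, 5.21 and 4.66 in 2D and 4.01, 4.23 and 4.80 in 3D. 3D replicate 3 lay within the 2D range, and the change was -0.56 (-1.08 to -0.05, adjusted p = 0.176). PCDH8, an activity-regulated delta-2 protocadherin of neurons, read 4.24 to 4.47 in 2D and 4.07 to 4.19 in 3D, the single member with every 3D array below every 2D array (15.3% of all genes), and its change was -0.26 (-0.50 to -0.03, adjusted p = 0.166). PCDH1, which is expressed in airway epithelium, changed by 0.31 (-0.004 to 0.63, adjusted p = 0.219). The interval was -0.58 to 0.25 for PCDH9, -0.30 to 0.44 for PCDH12, an endothelial protocadherin, and -0.33 to 0.42 for PCDH19, a gene of inherited epilepsy. A 2-fold change in either direction lies outside the interval of each of these genes except PCDH20, where it remains inside on the lower side.

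PCDH11X and PCDH11Y are near-identical copies on the X and Y chromosomes, and their promoters shared an identical run of 196 bases. Their probe sets read 6.03 to 6.49 and 4.58 to 4.86 over all 6 arrays, with changes of -0.06 (-0.39 to 0.27) and -0.02 (-0.28 to 0.24). Whether a probe set reads its own copy alone was not tested, so the values are uncertain as to copy, and neither passed. An ovarian line derives from a female donor, so the PCDH11Y probe set cannot be taken to read a Y copy.

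**Figure D2:**
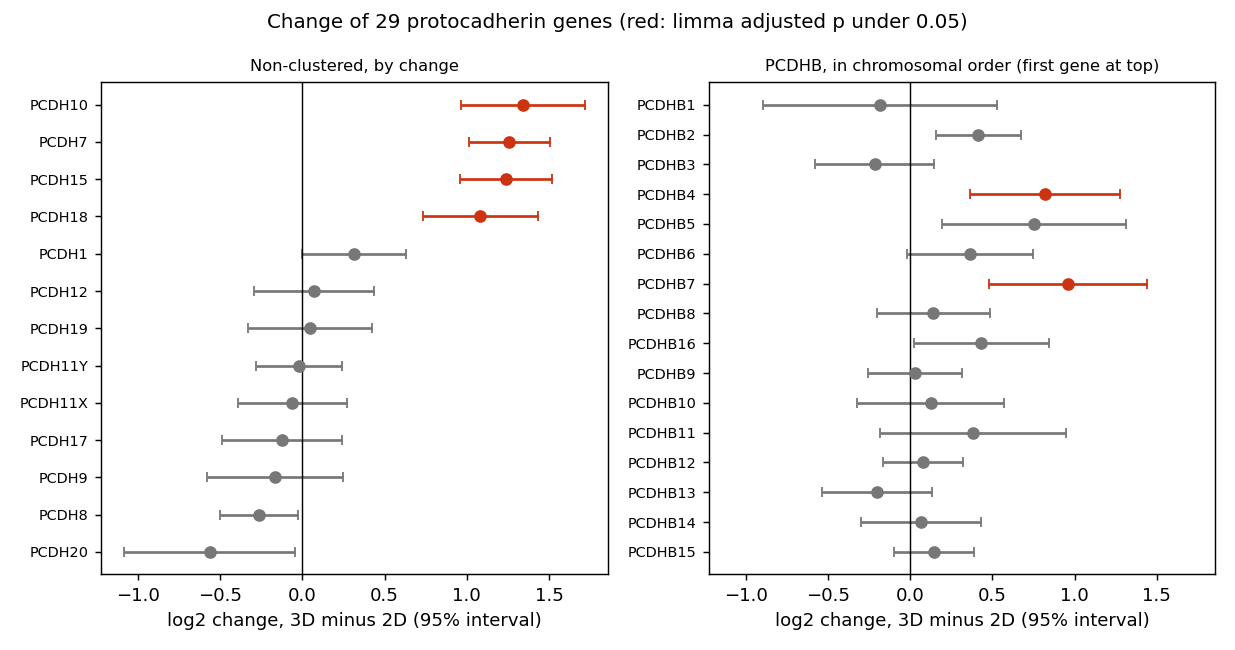
Log2 change, 3D minus 2D (horizontal axis), with its 95% interval for the 13 non-clustered genes ordered by change and the 16 PCDHB genes in chromosomal order (vertical axes). PCDH10, PCDH7, PCDH15 and PCDH18 stand between 1.08 and 1.34, and PCDHB4 and PCDHB7 are the PCDHB genes past the threshold (red).

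In the B cluster 2 of 16 genes rose, PCDHB7 and PCDHB4, and none fell. The changes ran from -0.22 (PCDHB3) to 0.96 (PCDHB7) with a median of 0.14, against -0.01 over all genes. At an unadjusted p under 0.05 there were 5 higher and 0 lower, where 11.5% of all genes were higher and 11.9% lower. The 2 calls among 16 genes compare with 5.23% of all genes called higher.

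PCDHB7 read 5.54, 6.09 and 5.48 on the 2D arrays and 6.31, 6.83 and 6.85 on the 3D arrays. The highest 2D array and the lowest 3D array stood close together, but the groups did not overlap. Its change was 0.96 ± 0.21 (SE, n = 3, adjusted p = 0.0267), or 1.94-fold. PCDHB4 read 4.37, 4.51 and 4.32 in 2D and 4.74, 5.43 and 5.48 in 3D, with 3D replicate 1 nearest the 2D arrays. Its change was 0.82 ± 0.20 (SE, adjusted p = 0.0392), or 1.76-fold. Both calls were lost in most fits that leave out an array, with changes of 0.85 to 1.15 for PCDHB7 and 0.69 to 1.06 for PCDHB4 over the 6 fits. Except without 3D replicate 1 (1899 genes called over all), these fits also called fewer genes over all, 775 to 921 against 1488 with all arrays. PCDHB7 lost its call without 2D replicate 1 or 3 or 3D replicate 2 or 3 (adjusted p up to 0.0983), and PCDHB4 passed in the fit without 3D replicate 1 and in none of the 5 other fits that leave out an array (highest adjusted p 0.132).

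The 3D arrays lay above all 2D arrays in 5 of 16 PCDHB genes (13.8% of all genes), the others being PCDHB2, PCDHB5 and PCDHB6. PCDHB5 read 7.61, 7.66 and 6.84 in 2D and 7.80, 8.25 and 8.33 in 3D, a change of 0.76 ± 0.24 (SE, adjusted p = 0.0991). 2D replicate 3 was far below the other 2D arrays for this gene. PCDHB2 read 7.98, 8.04 and 7.77 in 2D and 8.25, 8.33 and 8.45 in 3D, a change of 0.41 ± 0.11 (adjusted p = 0.0581), and it passed in 4 of 13 alternatives, among them the fit without 3D replicate 1 (adjusted p = 0.0498). PCDHB6 changed by 0.37 (95% interval -0.02 to 0.75, adjusted p = 0.233).

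By position, the PCDHB genes with changes above 0.7 (PCDHB4, PCDHB5 and PCDHB7) stand close together toward the upstream end of the cluster, with PCDHB6 among them. Next come PCDHB8, at 0.14, and PCDHB16, at 0.43 (95% interval 0.02 to 0.84, adjusted p = 0.187). The run from PCDHB9 to PCDHB15 held changes of -0.20 (PCDHB13) to 0.38 (PCDHB11), with PCDHB9 at 0.03, PCDHB10 at 0.13, PCDHB12 at 0.08, PCDHB14 at 0.07 and PCDHB15 at 0.15. At the upstream end PCDHB1, whose mean lay between the lower quartile and the median of the arrays, gave -0.18 with a wide interval (-0.89 to 0.53). PCDHB2, which comes next, gave 0.41, and PCDHB3 gave -0.22. This order along the chromosome was seen in the values and has no test.

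**Figure D3:**
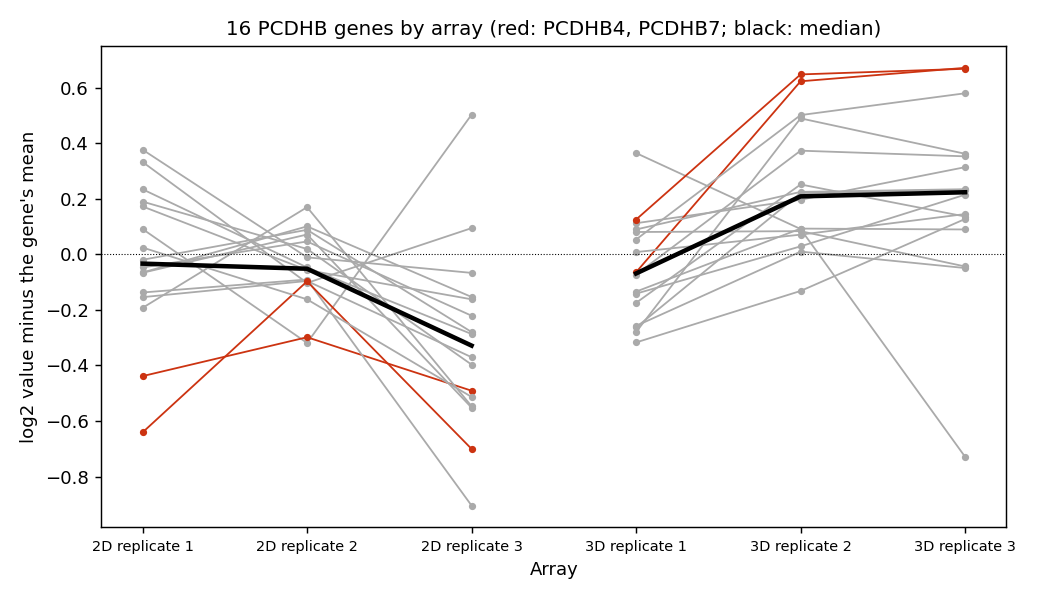
Log2 value of each of the 16 PCDHB genes minus the mean of that gene over all arrays (vertical axis) on the 6 arrays (horizontal axis), with PCDHB4 and PCDHB7 in red and the median in black; lines join the values of one gene and imply no order of replicates. The median is lowest on 2D replicate 3 (-0.33) among the 2D arrays and on 3D replicate 1 (-0.07) among the 3D arrays.

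The PCDHB genes also moved together between arrays of the same group. Of the 16, 14 were lowest on 2D replicate 3 among the 2D arrays, the exceptions being PCDHB1 and PCDHB3, and 14 were lowest on 3D replicate 1 among the 3D arrays, the exceptions being PCDHB1 and PCDHB12. Over all genes these arrays were the lowest of their group in 34.4% and 42.8% of cases. Among the non-clustered genes, the 4 called genes and PCDH8, PCDH9, PCDH11X and PCDH20 were also lowest on 3D replicate 1 among the 3D arrays. The other non-clustered genes were not, so the low values of that array were not particular to PCDHB genes. The mean of the 16 genes, each relative to its own mean, was -0.02, -0.05 and -0.32 on the 2D arrays and -0.05, 0.24 and 0.21 on the 3D arrays. 3D replicate 1 thus stood within the range of the 2D arrays. The 13 non-clustered genes gave -0.15, -0.12 and -0.21 in 2D and 0.11, 0.11 and 0.26 in 3D, with no overlap. These means include the 4 called genes and so repeat their calls, and the median change of the 13 was 0.05. Without 3D replicate 1, 3 PCDHB genes rose (PCDHB2, PCDHB4 and PCDHB7). That fit also called more genes higher over all, 1096 of 14884 against 778 with all arrays. Without 2D replicate 1, 2D replicate 3, 3D replicate 2 or 3D replicate 3 there were 0 by limma, with 4 or 5 higher and 0 lower at an unadjusted p under 0.05. In those fits 8.82% to 10.5% of all genes were higher and 9.29% to 10.7% lower at that threshold. Without 2D replicate 2 the count was 1 (PCDHB7), with 515 genes called higher over all.

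Paralog similarity limits how far single PCDHB values can be told apart, because probes of one gene may bind transcripts of another. The runs below describe the promoters and not the probed exons. Between 91 pairs of PCDHB promoters the longest identical run had a median of 13 bases, against 8 bases between 154 pairs of a PCDHB and a non-clustered gene. PCDHB8 and PCDHB13 were the closest pair, with an identical run of 55 bases. Their values were on opposite sides of 0, at 0.14 (95% interval -0.20 to 0.48) for PCDHB8 and -0.20 (-0.53 to 0.14) for PCDHB13, and both intervals include 0. PCDHB4 and PCDHB5, with a run of 19 bases, changed by 0.82 and 0.76, whereas PCDHB4 and PCDHB15, also with 19 bases, changed by 0.82 and 0.15. Both 19-base runs begin with the chosen motif, as the windows show, so the run length partly repeats the motif. It cannot show how far probes of these genes bind each other's transcripts. The part of shared probe binding in the common movement between arrays was not tested. The PCDHB pseudogenes that were measured, which are not members, did not pass the limma test. PCDHB17P, whose mean lay under the lower quartile of the arrays, gave 0.33 ± 0.16 (SE, adjusted p = 0.266) and PCDHB19P 0.11 ± 0.15 (adjusted p = 0.742). PCDHB18P gave 0.35 ± 0.13 (adjusted p = 0.156), with every 3D array above every 2D array (13.8% of all genes).

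Other cadherin superfamily genes were compared for context. Of 48 listed genes 23 were measured, and 5 rose, 0 fell and 18 did not pass, with a median change of 0.12, against 5.23% of all genes called higher and 4.77% lower. The classical cadherin genes CDH1, CDH2 and CDH3 were listed but not among those measured, so nothing is said of them. RET, a receptor tyrosine kinase with cadherin-like repeats, rose by 1.71 ± 0.19 (SE, n = 3, adjusted p = 0.00136). The giant cadherin FAT2 rose by 1.23 ± 0.21 (adjusted p = 0.0101). DCHS1, a ligand of FAT cadherins, rose by 0.50, FAT1 by 0.46, and the desmosomal cadherin DSC3, named after its value was seen, by 0.39. These last 3 calls were lost without most single arrays, and the highest adjusted p was 0.138, 0.115 and 0.146. With the mean of its probe sets DCHS1 changed by 0.15 (adjusted p = 0.390), and after a repeated quantile normalization its adjusted p was 0.0522. DCHS1 kept its call without 3D replicate 2, FAT1 kept its call without 3D replicate 1, and DSC3 lost it without any array. Of 13 catenins and armadillo relatives, which link cadherins to the cytoskeleton, 6 were measured, and CTNNB1 was not among them. Of these 6, 3 rose (5.23% of all genes did), PKP2 by 1.19 ± 0.17 (SE), JUP by 1.02 ± 0.10 and PKP4 by 0.70 ± 0.09. Delta protocadherins lack the catenin-binding tail of classical cadherins.

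Of 27 listed regulators of protocadherin promoters 22 were measured, and 3 fell, 0 rose and 19 did not pass (median -0.03), against 4.77% of all genes called lower. The largest change was that of DNMT3B, a DNA methyltransferase known to act on the clustered promoters, which read 7.64, 7.70 and 7.60 in 2D and 6.42, 6.11 and 6.21 in 3D. Every 3D array lay below every 2D array, and the gene fell by 1.40 ± 0.11 on the log2 scale (SE, adjusted p = 0.000325), or 2.64-fold. TET1, which oxidises methylated cytosine, fell by 0.55 ± 0.12 (adjusted p = 0.0280) and the cohesin subunit gene SMC3 by 0.37 ± 0.09 (adjusted p = 0.0440). Both kept their calls in the fit without 3D replicate 1 and lost them in the 5 other fits that leave out an array (highest adjusted p 0.110 and 0.154). SMC3 also lost its call when the arrays were centred on their medians (adjusted p = 0.0569). CTCF, given for its role, was at 10.2 ± 0.03 in 2D and 10.2 ± 0.05 in 3D (SD), a change of -0.02 ± 0.09 (SE, adjusted p = 0.948). Methylation was not measured, and the part of these genes in the protocadherin values was not tested.

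Of 31 intracellular partners and proteases of protocadherins 19 were measured, and 2 rose, 1 fell and 16 did not pass (median -0.18). These 3 calls are near the 10.0% called over all genes and are no result about the list. NCSTN, a subunit of the gamma-secretase that cuts protocadherins, rose by 0.64 ± 0.12 (SE, n = 3, adjusted p = 0.0159). The adaptor gene DAB1 rose by 0.53 ± 0.12 (adjusted p = 0.0314), and the kinase gene SRC fell by 0.39 ± 0.09 (adjusted p = 0.0418). When arrays were left out in turn, the calls of NCSTN and SRC held in the absence of 3D replicate 1 and in no other case (highest adjusted p 0.0697 and 0.164). A repeated quantile normalization ended the call of SRC (adjusted p = 0.0613). DAB1 lost its call without 2D replicate 1 or 2 or 3D replicate 2 or 3 (up to 0.119).

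**Figure D4:**
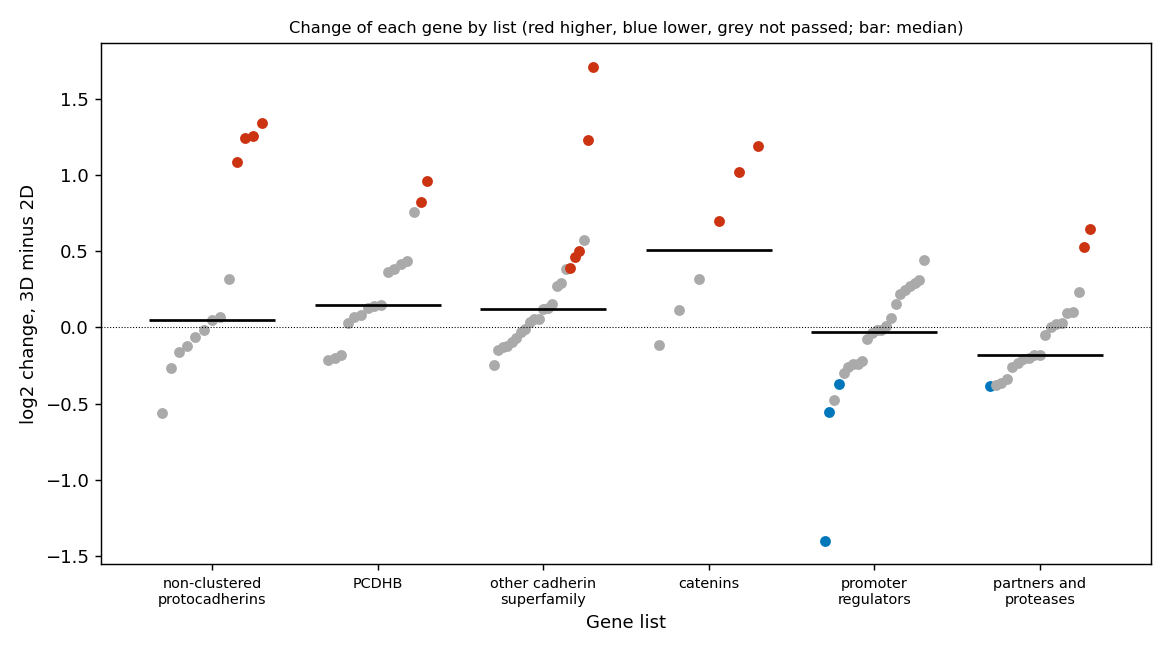
Log2 change, 3D minus 2D (vertical axis), of each measured gene in 6 lists (horizontal axis), where red is higher, blue is lower, grey did not pass and the bar is the median. The medians run from -0.18 for partners and proteases to 0.51 for catenins, and the lowest point is DNMT3B at -1.40.

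Markers of cell types in which protocadherins are known were set beside these values. Of 12 neuronal markers 6 were measured, and MAP2 rose by 0.39 (adjusted p = 0.0390), a call lost without any single array and after a repeated quantile normalization (adjusted p = 0.0700). Their summed linear level was 208 to 218 in 2D and 226 to 258 in 3D, and the list's median change was -0.01. Of 12 fibroblast and endothelial markers 5 were measured, with PECAM1 rising by 1.27 ± 0.14 (SE, n = 3, adjusted p = 0.00166) and summed levels of 98.97 to 107 and 106 to 131. The other 4 did not pass, with KDR at -0.11, VWF at -0.04, THY1 at -0.01 and DCN at 0.12, and the median of this list was -0.01. Of 12 leukocyte markers 5 were measured, with LYZ (1.83 ± 0.29) and CD68 (0.68 ± 0.11) rising and summed levels of 558 to 684 and 953 to 990. With the mean of its 2 probe sets LYZ changed by 1.06. CD14 (-0.41, adjusted p = 0.168), CSF1R (-0.38, adjusted p = 0.167) and TYROBP (-0.07) did not pass, and the median of this list was -0.07. The table has no detection calls and no listed value of 0. All arrays were of SKOV3, a single line, so these values are not read as amounts of neurons, fibroblasts, endothelial cells or leukocytes. A changed share of SKOV3 cells with a marker and changed RNA per cell cannot be told apart in bulk arrays. The part of these markers in the protocadherin changes was not tested.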

How the data were processed

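The deposited values are on a log2 scale and were made by the authors with RMA, per the submitters' processing notes; RMA corrects background, makes arrays alike and summarises each probe set. Version, build and filter settings were not given in the sources used here, and the log2 scale was read from the values (0.30 to 13.87). Probe sets were named through the platform annotation, in which 16098 of 53617 carried a symbol, and for genes with several the one of highest mean across the 6 arrays was kept. The 3D and 2D arrays were compared in R 4.3.3 by limma 3.58.1, with group alone in the model, two-sided moderated tests and a threshold of 0.05 on Benjamini-Hochberg values over all genes. The fit was tested on simulated data. Alternatives were a repeated quantile normalization, median centring, leaving out genes under the lower quartile, averaging the probe sets of a gene or taking the most variable, a variance trend with robust moderation, a block for the replicate number, and leaving out each array.

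Members and lists were chosen with earlier results of these data known. By the rule for named genes, every member was named, called members were given on every array, and up to 4 called genes with the largest change were taken from each other list.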

Additional observations from a re-analysis of the deposited data

How the results depend on the processing

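PCDH10, PCDH7, PCDH15 and PCDH18 kept their direction and call in all 13 alternatives, so that 4 non-clustered genes were called in each, or 5 when probe sets were averaged or chosen by variance. PCDH17 turned from -0.12 to 0.50 with the mean of its probe sets and to 1.12 with the most variable one. The choice by variance favours a probe set that differs between the groups. Over the fits without 1 array, the calls numbered 775 to 1899 for all genes, 0 to 3 for PCDHB genes, 2 to 3 for other cadherins, 1 to 3 for promoter regulators and 0 to 3 for partners and proteases. Where that last count was 0, limma had 2 higher and 3 to 6 lower members at an unadjusted p under 0.05 (8.82% to 10.5% and 9.29% to 10.7% of all genes). With a trended robust variance 6 of 19 partners and proteases were called (2 higher and 4 lower), and 1931 of 14884 genes over all. Same-numbered arrays of the groups did not deviate together (correlations of -0.28, -0.06 and -0.18 across genes). With so few arrays this cannot settle whether same-numbered samples were collected together. With the replicate number as a block there were 760 calls over all genes, 1 for PCDHB genes (PCDHB7), 2 for other cadherins, 1 for promoter regulators and 0 for partners and proteases (limma, with 2 higher and 4 lower at an unadjusted p under 0.05, against 9.72% and 9.78% of all genes). PCDHB4 then had an adjusted p of 0.0699. The number of arrays limits small changes, and probe binding between paralogs remains unmeasured.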
